A study of Homo sapiens with 24 samples.

Results

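MALAT1, NEAT1 and NORAD are long noncoding RNAs, transcripts that code for no protein, and they are 3 of the 12285 genes whose levels were measured in K562 cells over 46 h of culture. The genes were chosen from measured values: MALAT1 was among the largest rises at 16 h and 18 h, NEAT1 is the other abundant nuclear long RNA transcribed beside it, and NORAD, which works mainly in the cytoplasm, was set against both. All 3 had a row in the expression table and none was lost to a filter on low values. The values at 16 h and 18 h chose the set and are therefore given as a description with no test, and tests were run on the other 22 time points.

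K562 is an established human leukaemia line that carries the BCR-ABL fusion and expresses erythroid genes. A population of similar cell size was collected by centrifugal elutriation and grown in RPMI with 10% bovine calf serum and P/S. It was sampled every 2 h from 0 h to 46 h, with total RNA isolated and 1 library sequenced per time point. No treatment or genotype differed between samples, so time was the only variable, there were no replicates, and the 24 libraries came from 1 time series. The study named 16 h and 18 h as STRIPEs. This is its term for time points at which the levels of many transcripts depart sharply from those of their neighbours. It argued that STRIPEs are technical and not biological in origin, and left their exact source unknown. It asked whether such time points can be found and corrected.

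MALAT1 is one of the most abundant RNAs of mammalian nuclei and gathers in nuclear speckles, bodies rich in splicing factors. NEAT1 is the scaffold of paraspeckles, bodies that form around its long isoform and hold proteins such as NONO and SFPQ. Both RNAs lack a usual poly(A) tail at the end of the mature long form. RNase P, the enzyme that trims transfer RNA precursors, cuts a tRNA-like piece from the end, and the new end is protected by a triple helix between a genomically encoded A-rich stretch and a pair of U-rich stretches. NORAD is polyadenylated and conserved, and binds the Pumilio proteins, which repress messages that hold their motif.

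The stretches behind these roles are shown from GENCODE 29 transcripts, in the sense strand with T for U and positions counted from 1 at the 5′ end of the transcript. The longest transcripts of MALAT1 (8708 nt) and NEAT1 (22743 nt) are shown over nt 8265–8355 and nt 22651–22743, from the first U-rich stretch to the A-rich end. They are shown because the ends of these long forms set them apart from a polyadenylated transcript such as NORAD. Capitals mark, in order, U-rich stretch TTTCTTTT, U-rich stretch TTTGCTTTT and A-rich stretch AAAGCAAAA.
MALAT1: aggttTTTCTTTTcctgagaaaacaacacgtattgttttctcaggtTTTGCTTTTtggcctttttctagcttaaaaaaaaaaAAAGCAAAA
NEAT1: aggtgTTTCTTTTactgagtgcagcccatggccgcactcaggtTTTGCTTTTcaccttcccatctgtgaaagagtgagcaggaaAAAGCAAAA
The annotated MALAT1 transcript ran 353 nt past the stretch shown, and that of NEAT1 ended with it. These letters were chosen from the members themselves. Read on the sense strand and in this order within 120 nt, they occurred in 2 of 206694 annotated transcripts, which belonged to these 2 genes.

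The NORAD transcript (5339 nt) held 15 copies of the Pumilio motif TGTANATA, read on the sense strand with N for any base, between nt 761 and nt 4599. That is 2.81 copies per kb, and 2 of the 12180 genes with a transcript sequence had more copies. At least 1 copy was present in 30.4% of those genes, and the median among the 3018 genes of 5000 nt or longer was 1 copy. The 3 places where a pair of motifs starts 9 nt apart, at nt 1436–1464, nt 2633–2661 and nt 3269–3297, are shown because repeated Pumilio motifs are the feature NORAD is known for, with the motifs in capitals.
NORAD nt 1436–1464: tatctgTGTATATAgTGTACATAaaggac
NORAD nt 2633–2661: ctatacTGTATATAtTGTATATAtaacgg
NORAD nt 3269–3297: gtgctgTGTATATAgTGTATATAagcgga
The MALAT1 transcript held 0 copies and that of NEAT1 held 6, or 0.264 per kb. A match to these letters is a description of the sequence and was not tested as a bound site.

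MALAT1 (ENSG00000251562) and NEAT1 (ENSG00000245532) are annotated as lincRNAs on the plus strand of chromosome 11, with the pseudogene FAUP4 as the only gene of the table between them. NORAD (ENSG00000260032) is a lincRNA on the minus strand of chromosome 20. Their GC contents of 40.3%, 44.1% and 41.6% were above those of 19.1%, 35.7% and 24.6% of genes, and their transcripts were longer than those of 94.7%, 99.9% and 78.5% of genes. Levels are given in FPKM, fragments counted per length of transcript and per number of mapped fragments, which compares genes per unit length. The mean over 24 time points was 1822 FPKM for MALAT1, the fourth highest of all genes and rank 1 of 1178 long noncoding genes, 275 FPKM for NEAT1 (rank 244 of all genes and 6 of long noncoding genes) and 69.2 FPKM for NORAD (ranks 1548 and 24). Without 16 h and 18 h the mean of MALAT1 was 924 FPKM. In those 22 libraries MALAT1 ranked from 14 (32 h) to 89 (2 h) among all genes, and 1 or 2 among long noncoding genes. The short and long isoforms of NEAT1 overlap and share 1 value here, so that value is not of the long form alone. Strand was not given in the sources used here, so reads from antisense transcripts cannot be told apart from those of the members. Nor was the library kit, so whether RNA without a poly(A) tail was captured is unknown.

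The libraries of 16 h and 18 h stood apart from the rest as a whole. Their summed FPKM were 566247 and 591309 against 456791 to 520382 elsewhere, and 102 and 115 genes were listed at 0 against 4 to 58. Across genes, the log2 difference from the median of the other time points correlated with GC content at Spearman's rho −0.53 and −0.56, against −0.35 to 0.22 elsewhere, and with transcript length at 0.28 and 0.29, against −0.12 to 0.14. All 8 erythroid markers had rows, with medians from 45.2 FPKM (TAL1) to 2434 FPKM (HBG2). Of the markers of other cell types, CD3D, COL1A2, EPCAM, KRT19 and LYZ had rows, with medians from 3.04 FPKM (COL1A2) to 61.5 FPKM (EPCAM). Read depth is unknown, so the counting error of a value cannot be given.

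MALAT1 reached 11073 FPKM at 16 h and 12319 FPKM at 18 h, where it was the most abundant of all genes. It made up 1.96% and 2.08% of the summed FPKM of these libraries, against 0.120% to 0.315% of the other 22. The flanking libraries held 1100 FPKM at 14 h and 851 FPKM at 20 h, so the level went up and came back within 1 sampling step each. The mean of 16 h and 18 h was 12.0-fold that of the flanks.

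**Figure D1:**
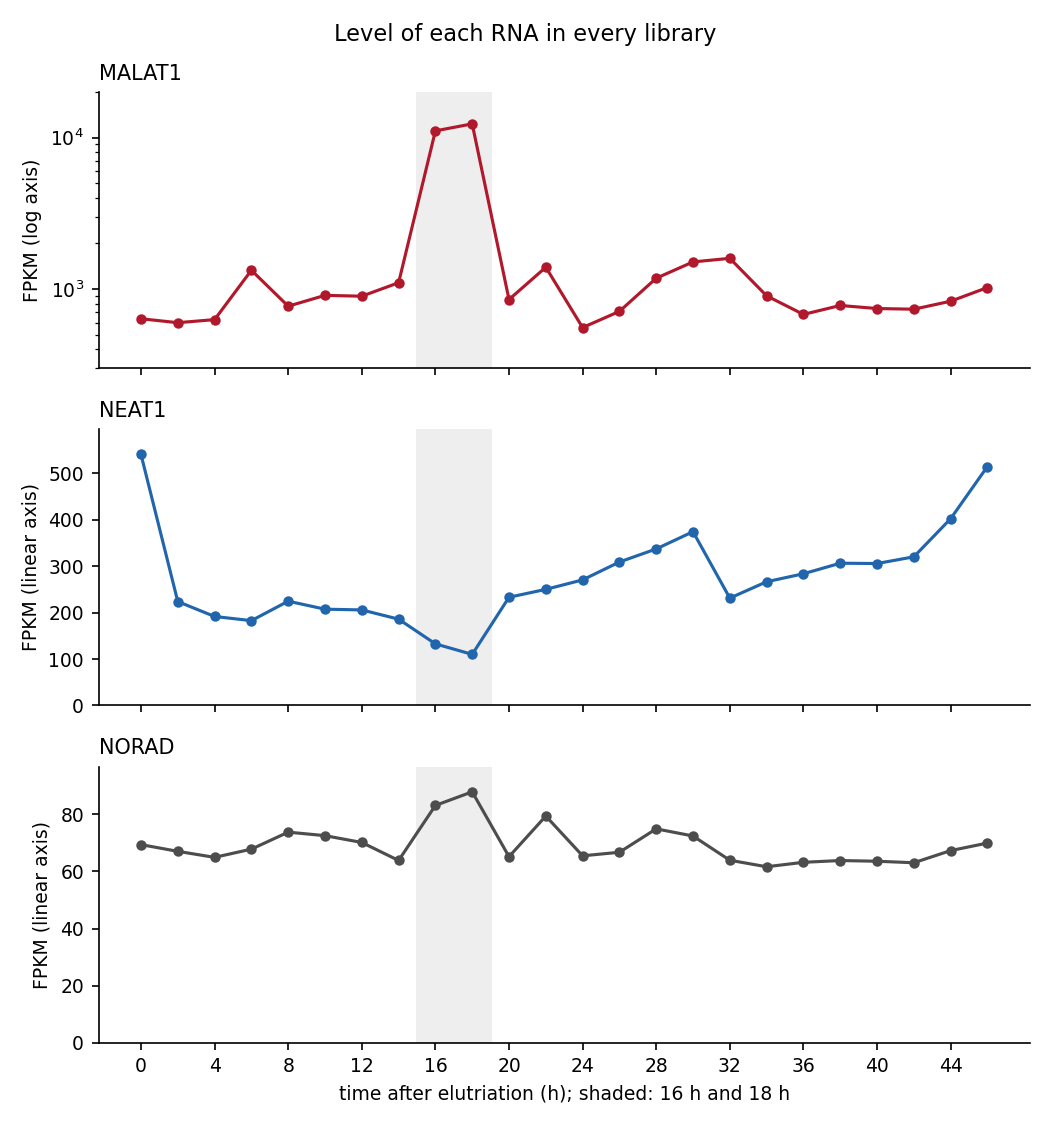
FPKM of MALAT1 (top, log axis), NEAT1 (middle, linear axis) and NORAD (bottom, linear axis) against hours after elutriation, each point 1 library, with 16 h and 18 h shaded. MALAT1 peaked at 12319 FPKM and NEAT1 reached its lowest level of 110 FPKM in the shaded libraries, while NORAD stayed between 61.7 and 87.9 FPKM throughout.

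Outside 16 h and 18 h, MALAT1 ranged from 556 FPKM at 24 h to 1593 FPKM at 32 h, with a median of 841 FPKM. It stood at 636, 599 and 627 FPKM at 0 h, 2 h and 4 h, was 1329 FPKM at 6 h and was back at 769 FPKM at 8 h. Levels of 907, 896 and 1100 FPKM followed at 10 h, 12 h and 14 h. These first libraries held a single-point peak at 6 h, 2.12 times the level of 4 h. A second single-point peak of 1392 FPKM at 22 h stood between 851 FPKM at 20 h and 556 FPKM at 24 h. From 711 FPKM at 26 h the level climbed to 1177, 1509 and 1593 FPKM at 28 h, 30 h and 32 h before 900 FPKM at 34 h. From 36 h to 44 h it stayed between 679 and 830 FPKM, and it was 1022 FPKM at 46 h. MALAT1 thus had its highest levels of these 22 libraries at 32 h, 30 h, 22 h, 6 h and 28 h, in that order.

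Libraries of those hours also had high totals. In the same order, the summed FPKM of these 5 libraries was 505466, 520382, 503962, 510972 and 500802, and among the other 17 only that of 10 h, with 501447, exceeded the lowest of these. The libraries of 32 h and 6 h listed 58 and 35 genes at 0, and that of 22 h had the rho of −0.35 with GC content. The part of these features in the level of MALAT1 was not tested. On the log2 scale, the SD of MALAT1 over the 22 time points was 0.44, above that of 98.0% of the 7169 genes whose mean reached 10 FPKM.

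NEAT1 moved the other way at 16 h and 18 h. It held 133 and 110 FPKM there, its lowest values of the series, against 186 FPKM at 14 h and 233 FPKM at 20 h. The mean of the pair was 0.579 of that of the flanks, and NEAT1 went from rank 7 among long noncoding genes at 14 h to ranks 11 and 17. In bulk RNA, fewer cells that express a gene and less of its RNA per cell cannot be told apart. The part of the library-wide departures at 16 h and 18 h in the level of NEAT1 was not tested.

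The highest level of NEAT1 was the first, 540 FPKM at 0 h, directly after elutriation. At 2 h it was 224 FPKM, a ratio of 2.42, and it stayed between 183 and 224 FPKM up to 14 h. The difference between 0 h and 2 h, 1.27 on the log2(FPKM + 1) scale, was rank 67 of all genes and rank 16 of those whose mean reached 10 FPKM. Of all genes, 1.04% were at least 2-fold lower at 2 h than at 0 h. With 1 library at 0 h this difference has no replicate check.

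From 20 h NEAT1 climbed through 250, 270, 309 and 337 FPKM at 22 h, 24 h, 26 h and 28 h to 374 FPKM at 30 h, a rise at every step. It dropped to 231 FPKM at 32 h, the hour at which the study saw a milder STRIPE. It then rose again from 266 FPKM at 34 h to 320 FPKM at 42 h, 402 FPKM at 44 h and 514 FPKM at 46 h, with a change of 0.998-fold between 38 h and 40 h as the only step down. The last level was 2.77-fold that of 14 h and close to that of 0 h.

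NORAD varied least. Outside 16 h and 18 h it ranged from 61.7 FPKM at 34 h to 79.4 FPKM at 22 h, with a median of 66.9 FPKM and a coefficient of variation of 6.80% (n = 22 time points). Its SD of 0.09 on the log2 scale was above that of 7.48% of these better expressed genes. From 34 h to 42 h it lay between 61.7 and 63.8 FPKM, and from 8 h to 12 h between 70.2 and 73.8 FPKM. At 16 h and 18 h it held 83.1 and 87.9 FPKM, its highest values, 1.33-fold those of the flanks of 63.9 and 65.2 FPKM, while its rank among long noncoding genes was 21 and 22 against 24 at both flanks. In every library the order was MALAT1, NEAT1, NORAD, with ranges over the 22 time points that did not overlap, although at 0 h MALAT1 stood only 1.18 times above NEAT1.

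To place these departures on 1 scale, a line was drawn from the 14 h to the 20 h value of log2(FPKM + 1), a scale that understates changes of low genes, and the distances of both irregular libraries from it were averaged. The same was done at 16 other pairs of consecutive time points that involve neither of these libraries. MALAT1 deviated by 3.59 (3.45 at 16 h and 3.73 at 18 h), rank 8 of 12285 genes, against −1.02 to 0.59 at the other pairs. NEAT1 deviated by −0.78 (−0.59 and −0.97), below its other pairs of −0.60 to 0.41, and 11.5% of genes lay lower. NORAD deviated by 0.40 (0.37 and 0.44), above its other pairs of −0.22 to 0.17, and 65.9% of genes lay lower.

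The median gene deviated by 0.14 at 16 h and 18 h, so that the deviations relative to it were 3.46 for MALAT1, −0.92 for NEAT1 and 0.26 for NORAD. Shares of 8.94% and 7.11% of all genes lay 2-fold or more above and below the flanks, respectively, and MALAT1 was the 1 member past this fold. After the smooth trend with GC content across genes was removed, the deviations were 3.11 for MALAT1, −1.12 for NEAT1 and −0.040 for NORAD, so the sign of NORAD turned. MALAT1 stayed above and NEAT1 below their flanks under each of the 9 alternatives run, while for NORAD the direction held in the other 8.

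**Figure D2:**
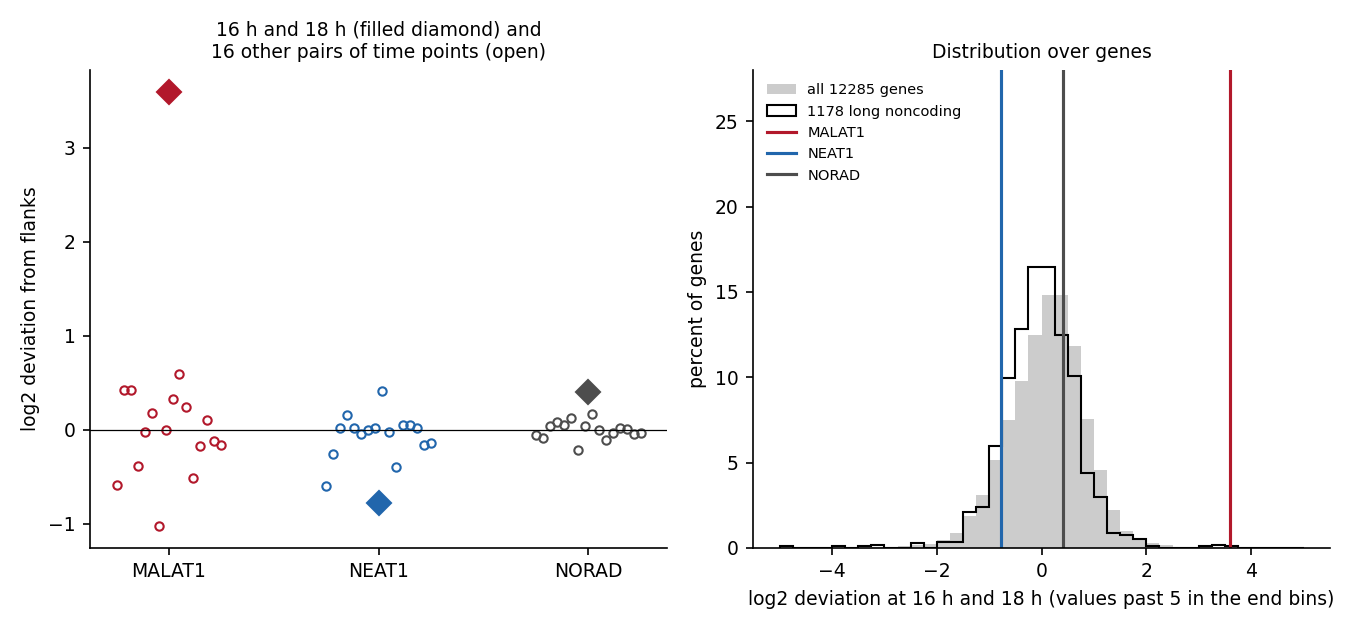
Left, log2 deviation of each RNA from its flanking time points at 16 h and 18 h (filled diamond) and at 16 other pairs of time points (open circles), each symbol 1 pair. Right, the deviations of all 12285 genes (grey) and of the 1178 long noncoding genes (line) as percent of genes, with vertical lines at 3.59 for MALAT1, −0.78 for NEAT1 and 0.40 for NORAD.

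Ratios between members within a library do not change when that library is multiplied by a factor. MALAT1 over NORAD was 133 at 16 h and 140 at 18 h, against 8.49 (24 h) to 24.9 (32 h) at the other time points. NEAT1 over NORAD was 1.59 and 1.25 at 16 h and 18 h, below the range of 2.69 (6 h) to 7.78 (0 h) elsewhere. The 2 nuclear RNAs thus departed from NORAD in opposite directions in the same libraries. MALAT1 over NEAT1 was 83.5 and 112, against 1.18 (0 h) to 7.28 (6 h).

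**Figure D3:**
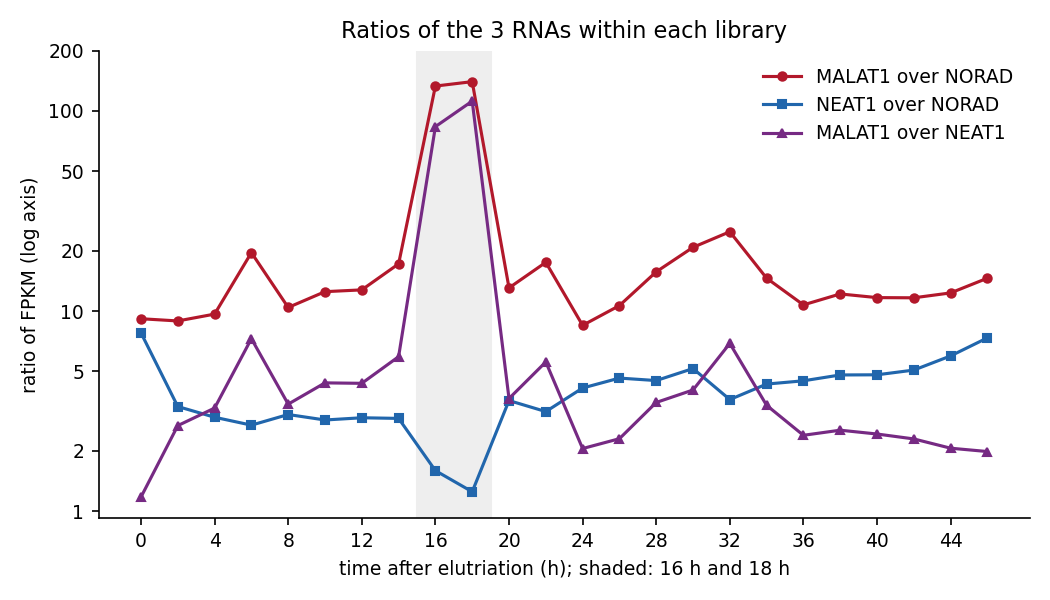
Ratios of FPKM of MALAT1 over NORAD (circles), NEAT1 over NORAD (squares) and MALAT1 over NEAT1 (triangles) in each library on a log axis against hours after elutriation, with 16 h and 18 h shaded. MALAT1 over NORAD stood at 133 and 140 in the shaded libraries against at most 24.9 elsewhere, and NEAT1 over NORAD at 1.59 and 1.25 against at least 2.69.

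NEAT1 was the member whose level followed the order of the 22 other time points. Kendall's tau with hour was 0.52, with a permutation p of 0.00061 and a permutation p of 0.0040 after Benjamini-Hochberg adjustment over all 12285 genes (two-sided). Among all genes, 18.3% were called higher and 16.4% lower at later hours at an adjusted p of 0.05. The call held without any single time point, with tau from 0.48 (without 44 h or 46 h) to 0.67 (without 0 h). Between matched hours 24 h apart, NEAT1 was higher in the later library in 9 of 10 pairs, with a median log2 difference of 0.59. The exception was 24 h against 0 h, at −0.997.

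MALAT1 and NORAD passed no test of order. Tau was 0.13 for MALAT1 (adjusted permutation p = 0.54) and −0.26 for NORAD (adjusted permutation p = 0.19). At matched hours 24 h apart, MALAT1 was higher in the later library in 4 of 10 pairs (median −0.02) and NORAD in 3 of 10 (median −0.04). For a 24 h cosine, the length taken for 1 cell cycle, the JTK statistic gave adjusted permutation p of 0.56 for MALAT1, 0.26 for NEAT1 and 0.28 for NORAD, while 16.2% of all genes were called. Tests treat time points as exchangeable, although neighbouring libraries of 1 culture are not independent.

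The authors also deposited a cleaned table, in which a score per gene replaces the FPKM and every time point holds the same sorted values. In SD units, MALAT1 had Z-scores of 3.09 and 3.50 at 16 h and 18 h and cleaned scores of 1.99 and 1.31, still its highest of 24. For NEAT1 the Z-scores of −1.39 and −1.61 became −0.69 and −0.70, within the range of −0.91 (14 h) to 2.03 (0 h) at its other time points. For NORAD the Z-scores of 2.12 and 2.84 became 0.60 and 0.68, below its cleaned scores of 1.48 at 22 h, 0.94 at 28 h and 0.81 at 8 h. The departure thus remained outside the range of the other libraries in the cleaned scores of MALAT1, but not in those of NEAT1 and NORAD.

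**Figure D4:**
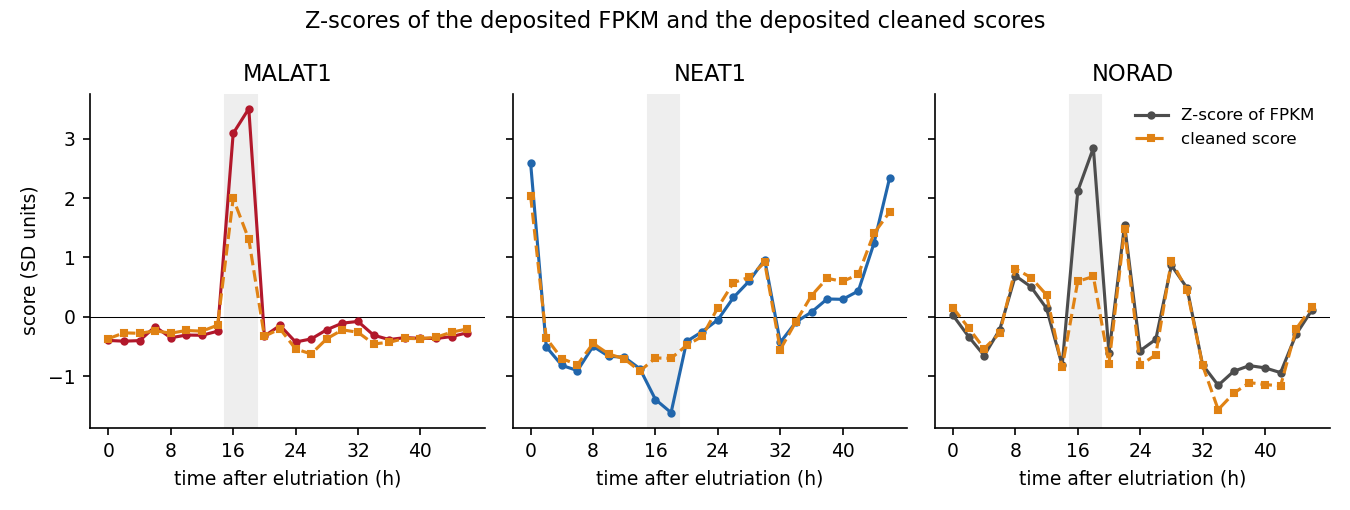
Z-scores of the deposited FPKM (solid line, circles) and deposited cleaned scores (dashed line, squares) of MALAT1, NEAT1 and NORAD, in SD units, against hours after elutriation, with 16 h and 18 h shaded. Cleaned scores of MALAT1 remained highest at 16 h (1.99) and 18 h (1.31), while those of NEAT1 (−0.69 and −0.70) lay among its other time points.

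The class as a whole did not follow MALAT1. The 1178 long noncoding genes had a median deviation of −0.02 at 16 h and 18 h, against 0.14 for all genes and 0.17 for the 10401 protein-coding genes. Of them, 65 (5.52%) were above the flanks and 69 (5.86%) below them by 2-fold or more, beside 8.94% and 7.11% of all genes. At the 16 other pairs, at most 11 long noncoding genes were above and 8 below. The balance depended on scaling, with 44 above and 97 below when each library was centred on its median and 33 above and 94 below with upper-quartile scaling. Of the 176 whose mean reached 10 FPKM, 14 (7.95%) were above and 13 (7.39%) below, beside 11.1% and 7.66% of all genes of that level. For order in time, 226 long noncoding genes (19.2%) were called higher at later hours, as was NEAT1, and 121 (10.3%) lower, beside 18.3% and 16.4% of all genes.

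Among those 176 genes, the largest rises after that of MALAT1 were of unnamed genes. The antisense gene ENSG00000282024 deviated by 3.004, from 17.2 and 14.3 FPKM at the flanks to 122 and 144 FPKM. ENSG00000260772 deviated by 2.09, ENSG00000227706 by 1.95, with 553 and 665 FPKM at 16 h and 18 h against 133 to 349 FPKM elsewhere, and ENSG00000261061 by 1.82. The largest falls were of the antisense gene ENSG00000235288 (−4.96), LINC01128 (−3.93), which was listed at 0 in both libraries and also in 2 of the other 22, at 6 h and 32 h, and the small nucleolar RNA hosts SNHG25 (−3.29), SNHG9 (−3.07) and SNHG19 (−3.02). SNHG19 went from 48.9 and 36.3 FPKM at the flanks to 4.16 and 4.46 FPKM.

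Long RNAs described as mainly nuclear did not share the size of the rise of MALAT1. Of 8 such RNAs, 6 had rows, and all 6 lay above their flanks with a median deviation of 0.30, where 58% of all genes lay above theirs. TUG1 was the 1 past 2-fold above, as were 8.94% of all genes. It had 91.3 and 106 FPKM at 16 h and 18 h against 40.1 to 67.8 FPKM elsewhere (1.19). PVT1, with 217 and 240 FPKM, lay within its range of 147 to 260 FPKM at the other hours (0.49). LINC-PINT (0.35), FIRRE (0.25), MEG3 (0.12) and FTX (0.07) had means under 3 FPKM. In order of time, PVT1, MEG3, FIRRE and LINC-PINT were called higher at later hours (tau 0.53, 0.56, 0.54 and 0.44, adjusted permutation p from 0.0016 to 0.017), as were NEAT1 and 18.3% of all genes, and TUG1 (tau 0.10) and FTX (−0.02) did not pass.

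Of the long RNAs described as mainly cytoplasmic, all 10 had rows, and the median deviation was −0.11. In this list 3 lay above and 7 below their flanks, where 58% of all genes lay above theirs. SNHG6 stood apart at 1.30, with 393 and 411 FPKM against 150 to 272 FPKM elsewhere, and SNHG5 lay lowest at −0.64. H19 deviated by 0.62 at a mean of 1.83 FPKM and GAS5 by 0.11 at 407 FPKM. OIP5-AS1 (−0.0060), SNHG1 (−0.07), CYTOR (−0.14), ZFAS1 (−0.16), DANCR (−0.17) and SNHG8 (−0.31) also lay below their flanks. Of these, SNHG8 had 111 and 116 FPKM at 16 h and 18 h, under its range of 120 to 191 FPKM elsewhere. The others stayed within their ranges. H19 was called higher at later hours (tau 0.55), SNHG1 (−0.75) and SNHG8 (−0.39) lower (all genes, 18.3% and 16.4%), and the other 7 did not pass. SNHG1 and SNHG6 were called for the 24 h cosine (adjusted permutation p of 0.025 and 0.0091), beside 16.2% of all genes. NORAD, at 0.40, was above the median of both lists at 16 h and 18 h.

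Messages of the paraspeckle proteins were mostly above their flanks at 16 h and 18 h, as were 58% of all genes, while NEAT1 itself was below. Of 13 such proteins, 12 lay above (median 0.65, against 0.14 for all genes). They were led by HNRNPH3 (1.56), NONO (1.48) and SFPQ (1.40), which were past 2-fold, as were 8.94% of all genes. SFPQ and NONO are the paired RNA-binding proteins on which paraspeckles depend. NONO had 465 and 563 FPKM in these libraries against 168 to 354 FPKM in the others. The lowest were SMARCA4 (0.09), a chromatin remodelling ATPase, and RBM14 (−0.39). In order of time, 0 were called higher and 7 lower at later hours, against 18.3% and 16.4% of all genes, in contrast to the direction of NEAT1. RBM14 (tau −0.76), CPSF6 (−0.64), SFPQ (−0.58) and HNRNPK (−0.55) had the smallest p. The 24 h cosine was called for 6, among them SFPQ, DAZAP1, NUDT21, CPSF6 and TARDBP, beside 16.2% of all genes.

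All 10 nuclear speckle proteins lay above their flanks (median 0.56), as did MALAT1 and 58% of all genes. Past 2-fold there were 3, beside 8.94% of all genes. PNN, a splicing protein of speckles, deviated most, with 500 and 568 FPKM at 16 h and 18 h against 73.4 to 152 FPKM elsewhere (2.77), before SRRM1 (1.64), a splicing coactivator, and RBM25 (1.54). The splicing factor SRSF1 (0.05) and ACIN1 (0.13) deviated least. At later hours 4 were lower, SON (tau −0.58), BCLAF1 (−0.56), SRSF2 (−0.50) and SRRM2 (−0.39), and 0 higher, against 16.4% and 18.3% of all genes. The 24 h cosine was called for 5, SRSF1, ACIN1, SRRM2, SRSF2 and THRAP3, against 16.2% of all genes.

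**Figure D5:**
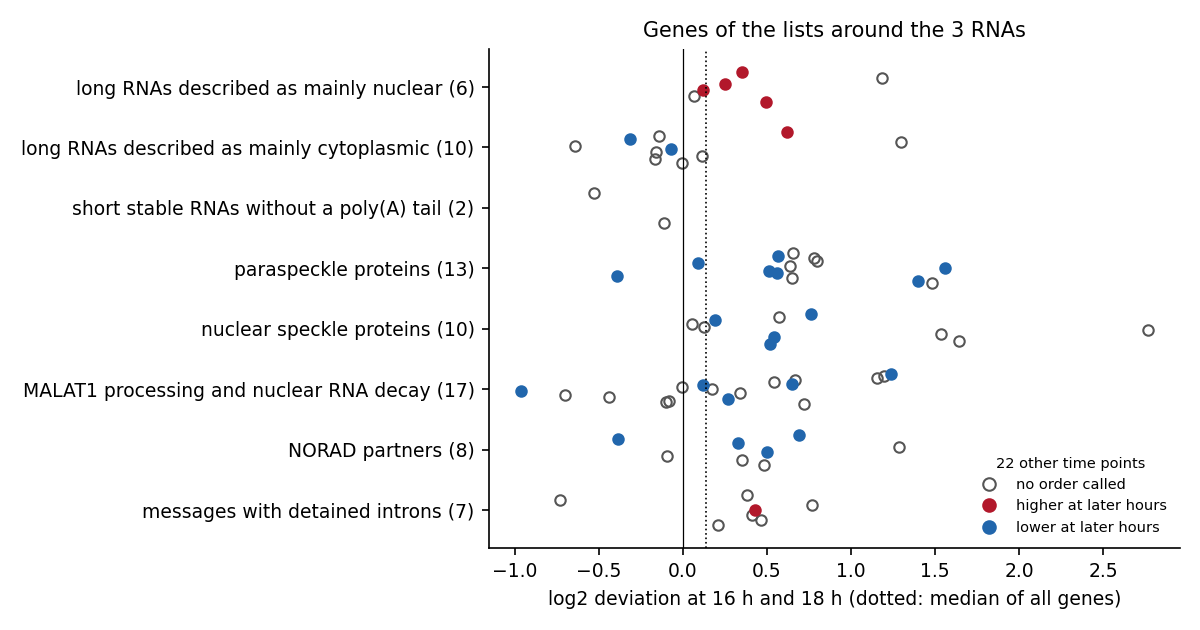
Log2 deviation at 16 h and 18 h of each gene of the 8 lists, with the number measured in parentheses and a dotted line at the median of all genes (0.14). Filled points mark genes called higher (red) or lower (blue) at later hours over the 22 other time points. Red points occur among the long noncoding RNAs and at OGT, while all calls among the 4 lists of protein partners were lower ones.

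The 17 genes for processing of the MALAT1 end and for nuclear RNA decay had a median deviation of 0.27, with 11 above and 6 below their flanks, beside the 58% of all genes above. PABPN1, the nuclear poly(A)-binding protein (1.24), ZFC3H1, a subunit that feeds polyadenylated RNA to the nuclear exosome (1.20), and RBM7 of the NEXT complex (1.15) were past 2-fold. Of all genes, 8.94% were 2-fold or more above. The lowest were the RNase P subunits RPP25 (−0.97) and POP7 (−0.70). ELAC2, which cuts the other end of the tRNA-like piece, had 74.9 and 79.9 FPKM against 45.07 and 47.97 FPKM at the flanks (0.72). The values at 16 h and 18 h lay within its range of 36.9 to 82.65 FPKM elsewhere. Over the other time points, RPP40, RPP25, POP4, PABPN1 and the exosome nuclease EXOSC10 were called lower at later hours and 0 higher (all genes, 16.4% and 18.3%), and EXOSC10, PABPN1 and POP7 for the 24 h cosine (all genes, 16.2%). The short RNAs RMRP and RPPH1, the RNA subunits of RNase MRP and RNase P, were the 2 of 9 short RNAs without a poly(A) tail that had rows, with means of 1.70 and 3.32 FPKM and deviations of −0.11 and −0.53.

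The 8 partners of NORAD had a median deviation of 0.42, beside 0.40 for NORAD. Of them, 6 lay above their flanks, as did 58% of all genes. The Pumilio gene PUM2 (0.35) had 33.9 and 35.0 FPKM at 16 h and 18 h, above its highest value of 32.6 FPKM elsewhere. TOP1, which encodes topoisomerase I, lay highest (1.29), followed by CDC5L (0.69), and PRPF19 (−0.38) and KHDRBS1 (−0.10) lay lowest. At later hours ALYREF, PRPF19, CDC5L and RBMX were called lower (tau −0.57, −0.53, −0.52 and −0.44) and 0 higher, and KHDRBS1 and CDC5L were called for the 24 h cosine, where the shares of all genes were 16.4%, 18.3% and 16.2%. PUM2 passed no test of order (tau −0.32).

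Messages known to keep introns and stay in the nucleus were given as a further set of nuclear transcripts. Their median deviation was 0.41, with 6 of 7 above their flanks, beside 58% of all genes. Past 2-fold there were 0, where 8.94% of all genes were 2-fold or more above and 7.11% below. CCNL1 lay highest (0.77), then CLK2 (0.47), and CLK1 (0.21) and CCNL2 (−0.73) lowest. OGT, the enzyme that adds O-GlcNAc to proteins, was called higher at later hours (tau 0.66), and 0 were called lower, beside the 18.3% and 16.4% of all genes.

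Of the neighbouring genes, those of NEAT1 lay below their flanks at 16 h and 18 h, as NEAT1 did. FRMD8, on the far side of NEAT1 from MALAT1, went from 16.0 and 14.4 FPKM at the flanks to 5.53 and 6.31 FPKM (−1.23), below its range of 14.4 to 20.8 FPKM. FAUP4, between NEAT1 and MALAT1, had 3.53 and 4.12 FPKM (−0.33), and its reads may be shared with the parent gene of the pseudogene. Beside NORAD (0.40), CNBD2 deviated by −0.61 and EPB41L1 by 0.19, at levels under 6 FPKM in every library.

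The genes most like each member over the 22 time points were found by Spearman's rho among genes whose mean reached 10 FPKM, as a description, since all points share the libraries and their order. For MALAT1 they included CAPZA1 (0.90), which caps actin filaments, PSME3IP1 (0.90), SAE1 (0.88), part of the SUMO-activating enzyme, and the cohesin gene SMC1A (0.87). At 16 h and 18 h, which this measure left out, these genes deviated by 0.34 to 0.94, against 3.59 for MALAT1. For NEAT1 they were ZKSCAN1 (0.95), a zinc finger gene, TBC1D23 (0.90), RMND1 (0.89), SLC12A4 (0.88), a potassium-chloride cotransporter, and TRAPPC2 (0.88), all 5 called higher at later hours. At 16 h and 18 h SLC12A4 deviated by −0.59, against −0.78 for NEAT1. ZKSCAN1 (0.11), TBC1D23 (0.35), RMND1 (0.05) and TRAPPC2 (0.06) lay above their flanks.

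For NORAD they were CDKN1B (0.84), which encodes the cell-cycle inhibitor p27, GPBP1L1 (0.81), STK19 (0.78), LSM14A (0.77), a component of cytoplasmic P-bodies, and SLC37A4 (0.77). Their deviations at 16 h and 18 h ran from −1.15 for SLC37A4 to 0.83 for LSM14A. Between members, rho was 0.35 for MALAT1 and NORAD, 0.03 for NEAT1 and NORAD and −0.10 for MALAT1 and NEAT1. The 2 nuclear RNAs that lie beside each other on chromosome 11 thus had the lowest rho of the 3 pairs.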

How the data were processed

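The deposited expression table holds FPKM values, which the authors made with STAR, Cufflinks and Cuffnorm on GRCh37, per the labels. Versions, library kit and strand are not given in the sources used here. The cleaned table holds a score per gene and time point, deposited by the authors after correction of irregular time points. Every gene listed reaches 1 FPKM in at least 12 of 24 time points. Values were used as deposited, with log2 values taken after adding 1 FPKM.

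Members and lists were chosen with earlier results of these data known. Named genes are the members, the 5 most alike to each, list members by size of deviation or p, the 5 highest and 5 lowest long noncoding genes, and nearest neighbours, a few of which are not reported here. Names, types, lengths, GC content and transcripts came from GENCODE 29 (GRCh38, 12180 genes matched). Since the builds differ, no coordinates are given. Order was tested with Kendall's S against hour and the JTK statistic (largest S over 12 phases), each with 100000 permutations and checked on simulated data, in Python 3.11.15 with numpy 2.4.6 and pandas 2.3.3. Read depth is unknown.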

Additional observations from a re-analysis of the deposited data

How the results depend on the processing

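Quantile normalization of FPKM changed MALAT1 most, to a deviation of 2.19 at 16 h and 18 h, a log2 ratio deviation of 2.07 over NORAD and 3.24 over NEAT1. This step acts on ranks and gives the top gene of each library the same value. Removing the GC trend gave 3.11 for MALAT1, −1.12 for NEAT1 and −0.040 for NORAD, which reversed. NEAT1 was −1.01 with upper-quartile scaling, −1.05 with quantile normalization and −1.04 with equal sums. NORAD was 0.29 with median centring, 0.17 with upper-quartile scaling, 0.12 with quantile normalization, 0.14 with equal sums and 0.30 against the mean of 12 h, 14 h, 20 h and 22 h. Changes were judged against the SD over the 16 other pairs, 0.43 for MALAT1, 0.23 for NEAT1 and 0.09 for NORAD.

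Long noncoding genes at least 2-fold above their flanks numbered 118 with a pseudocount of 0.1, 14 at a mean of at least 10 FPKM and 33 with upper-quartile scaling, and those below 176, 13 and 94. With median centring they numbered 44 and 97. Under the changed pseudocount and these scalings, the shares of all genes were not counted. Genes called for order in time numbered 4265 in all, 2526 among those of at least 10 FPKM, and 3722 to 4842 without 1 time point each. Those called for the 24 h cosine numbered 1993, and 1062 without 6 h and 32 h, 133 at 20 h, 298 at 28 h, and 1073 (without 6 h) to 1953 without 1 time point each, with 1322, 1315 and 1301 without 8 h, 40 h and 42 h.

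The order of NEAT1 was called under all 6 other settings and without each of the 22 time points (adjusted permutation p from 0.00028 to 0.011). Alternatives added after the data were seen gave tau 0.63 without 0 h and 46 h and 0.51 without 6 h, 22 h, 28 h, 30 h and 32 h. MALAT1 and NORAD were called under none, and the cosine test called no member. No paired analysis was possible because each time point has 1 library, so no replicate block could be fitted, and the libraries 24 h apart were matched by hour and given as values. The limits are a single time series, unknown depth, unknown strand and an unknown library kit.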
